A study of Mus musculus with 8 samples.

Results

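Immediate early genes and the activity-induced genes that follow them were described in bulk RNA sequencing of brain tissue from 4 libraries labelled Nsun5-KO and 4 wild-type (WT) libraries. The set holds 34 genes, taken by gene symbol from a table of 54532 genes: 17 rapid transcription factors and 17 effectors. All 34 were found, each under a single identifier, and all 34 passed the filter on low counts that left 16062 genes for testing. The labels give one group of mice as knockouts of Nsun5, the gene of an enzyme that methylates cytosine in ribosomal RNA, and the others as WT. All mice were 3-month-old males, littermates per the labels' protocols, and all were anaesthetised with pentobarbital at 50 mg/kg before the brain was taken. The labels name 5 mice per genotype, of which 4 libraries per genotype were analysed here, and they give neither the time of day nor the interval between anaesthesia and dissection. The stated purpose was to relate Nsun5 to the sleep of the mice.

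Immediate early genes are transcribed within minutes of a burst of neuronal activity, without new protein synthesis, because calcium entry and the ERK kinases switch on factors such as CREB and SRF that already sit at their promoters. Many of them encode transcription factors, which then raise a slower set of effectors that act at the synapse, are secreted, or shut the signal off. Their RNAs decay quickly, so that a brain sample records the recent past of its cells, and waking and sleep are known to change their level in the cortex.

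Nsun5 RNA did not separate the genotypes. Nsun5 had 102, 124, 83 and 110 counts in replicates 1 to 4 labelled Nsun5-KO and 91, 82, 103 and 109 counts in WT replicates 1 to 4 (log2 fold change 0.13, SE 0.15, edgeR adjusted p = 0.817). The knockout label was thus not borne out by the RNA counts of this gene, and groups are named by label throughout. Gene counts alone cannot tell whether the label, the design of the allele or the samples explain this, which was not tested. The libraries held 15642086 to 17829523 counts. The first principal component, with 25.7% of the variance, placed WT replicates 1 and 2 at -29.7 and -36 and all remaining libraries at 1.75 to 23.8. Mitochondrial genes took 5.52% to 6.23% of counts in the libraries labelled Nsun5-KO, and 7.27%, 7.68%, 5.97% and 5.93% in WT replicates 1 to 4. None of 6 neuronal markers was at 0, and their summed level was 6319 to 6883 CPM (counts scaled to library size) in the libraries labelled Nsun5-KO and 5628 to 5875 CPM in WT.

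The 34 genes covered a wide range of levels. On the FPKM scale, which divides by gene length and so allows genes to be compared, Arc was highest with a mean of 116.3 FPKM over the 8 libraries, followed by Vgf (96.1 FPKM) and the transcription factor Egr1 (86.8 FPKM). Junb (46.3 FPKM), Nr4a1 (41.4 FPKM), Egr3 (36.2 FPKM) and Jund (32.7 FPKM) came next. Fos, the gene most often used to mark active neurons, stood at 22.3 FPKM and Fosb at 3.31 FPKM. Npas4 was at 5.32 FPKM and Atf3, at 0.622 FPKM, was the lowest of the set, with 8 to 47 counts in a library. All 34 were thus detected in every library of both groups.

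**Figure D1:**
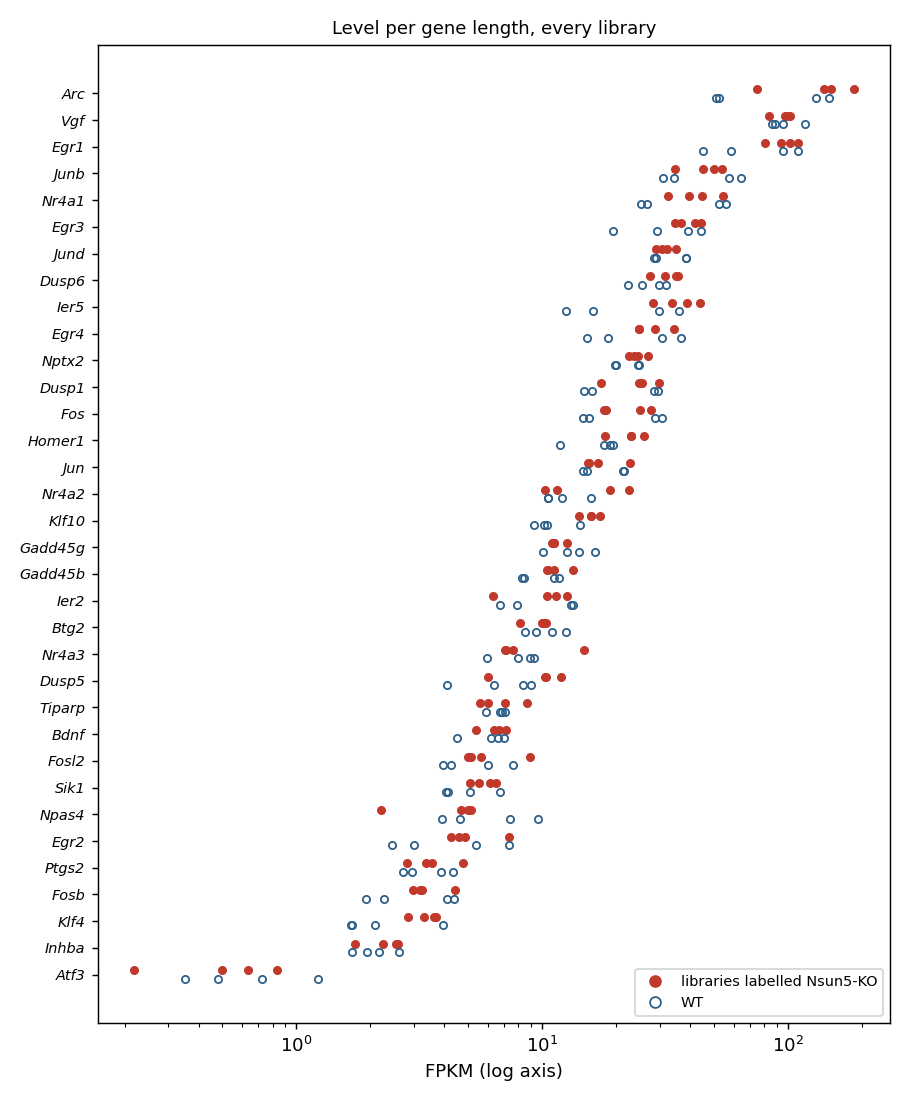
FPKM on a log axis (x) for each of the 34 genes (y, ordered by mean level), with filled points for the 4 libraries labelled Nsun5-KO above open points for the 4 WT libraries. Levels run from 0.622 FPKM for Atf3 to 116.3 FPKM for Arc, and the points of the groups overlap for every gene.

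No gene of the set passed the edgeR test between the genotypes. The edgeR quasi-likelihood test called 0 of 34 at an adjusted p below 0.05, as it called 0% of all 16062 genes. At an unadjusted p below 0.05 it found 2 of the 34 higher (Klf10 and Homer1) and 0 lower, where the test found 5.3% of all genes higher and 5.05% lower. The groups overlapped for all 34, whereas 2.99% of all genes lay wholly higher and 2.71% wholly lower in the libraries labelled Nsun5-KO. DESeq2 called 1 of the 34, Klf10, and gave Atf3 no adjusted p. Of the 14186 genes to which it gave an adjusted p, DESeq2 called 0.36% higher and 0.303% lower. By sign alone, 24 genes lay above WT and 10 below it, and the median log2 fold change was 0.13. Over all genes 48.6% lay above and the median was -0.005. In the related lists described below, 22 of 30 upstream regulators (73.3%) and 30 of 40 other activity-induced genes (75%) also lay above WT. Leaving out replicate 3 labelled Nsun5-KO brought the median of the 34 to 0.008, and leaving out WT replicate 1 or 2 brought it to 0.047 or 0.043. Without WT replicate 3 or 4 the median rose to 0.257 or 0.235. Without replicate 1, 2 or 4 labelled Nsun5-KO it was 0.132, 0.18 or 0.204. The 17 transcription factors had a median of 0.15 and the 17 effectors 0.12.

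The spread itself was the main feature of these genes. The median SD of log2 CPM between libraries of a group was 0.27 in the libraries labelled Nsun5-KO and 0.39 in WT, where all genes tested had 0.16 in the libraries labelled Nsun5-KO and 0.18 in WT. The transcription factors were more variable (0.27 in the libraries labelled Nsun5-KO and 0.56 in WT) than the effectors (0.22 in the libraries labelled Nsun5-KO and 0.29 in WT). Pooled over both groups, the SD of a typical transcription factor stood at the 85.6th percentile of all genes and that of a typical effector at the 68.1st. The WT spread exceeded the other group's in 29 of the 34 genes, compared with 57.4% of all genes. Nptx2 (39.2nd percentile) and Vgf (46.3rd) were the steadiest genes of the set, and Atf3 (96.4th) and Arc (96th) the most variable.

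The WT libraries came in the same order for most of the genes. In 29 of the 34 genes WT replicates 1 and 2 both lay below WT replicates 3 and 4, an order seen in 24.5% of all genes, and in 0 of the 34 was it turned round, against 25.3% of all genes. The order held in 15 of the 17 transcription factors and 14 of the 17 effectors. The 5 exceptions were Jun, Nr4a2, Bdnf, Ptgs2 and Inhba. Replicate 3 labelled Nsun5-KO was the highest of all 8 libraries for 13 of the 34 genes, against 15.1% of all genes, and WT replicate 4 for 11, against 10%. WT replicate 1 was the lowest for 16, against 15.4% of all genes, and WT replicate 2 for 10, against 15.5%. The order of the WT libraries had been seen in earlier results of these data, and its share among the 34 is given as a description.

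**Figure D2:**
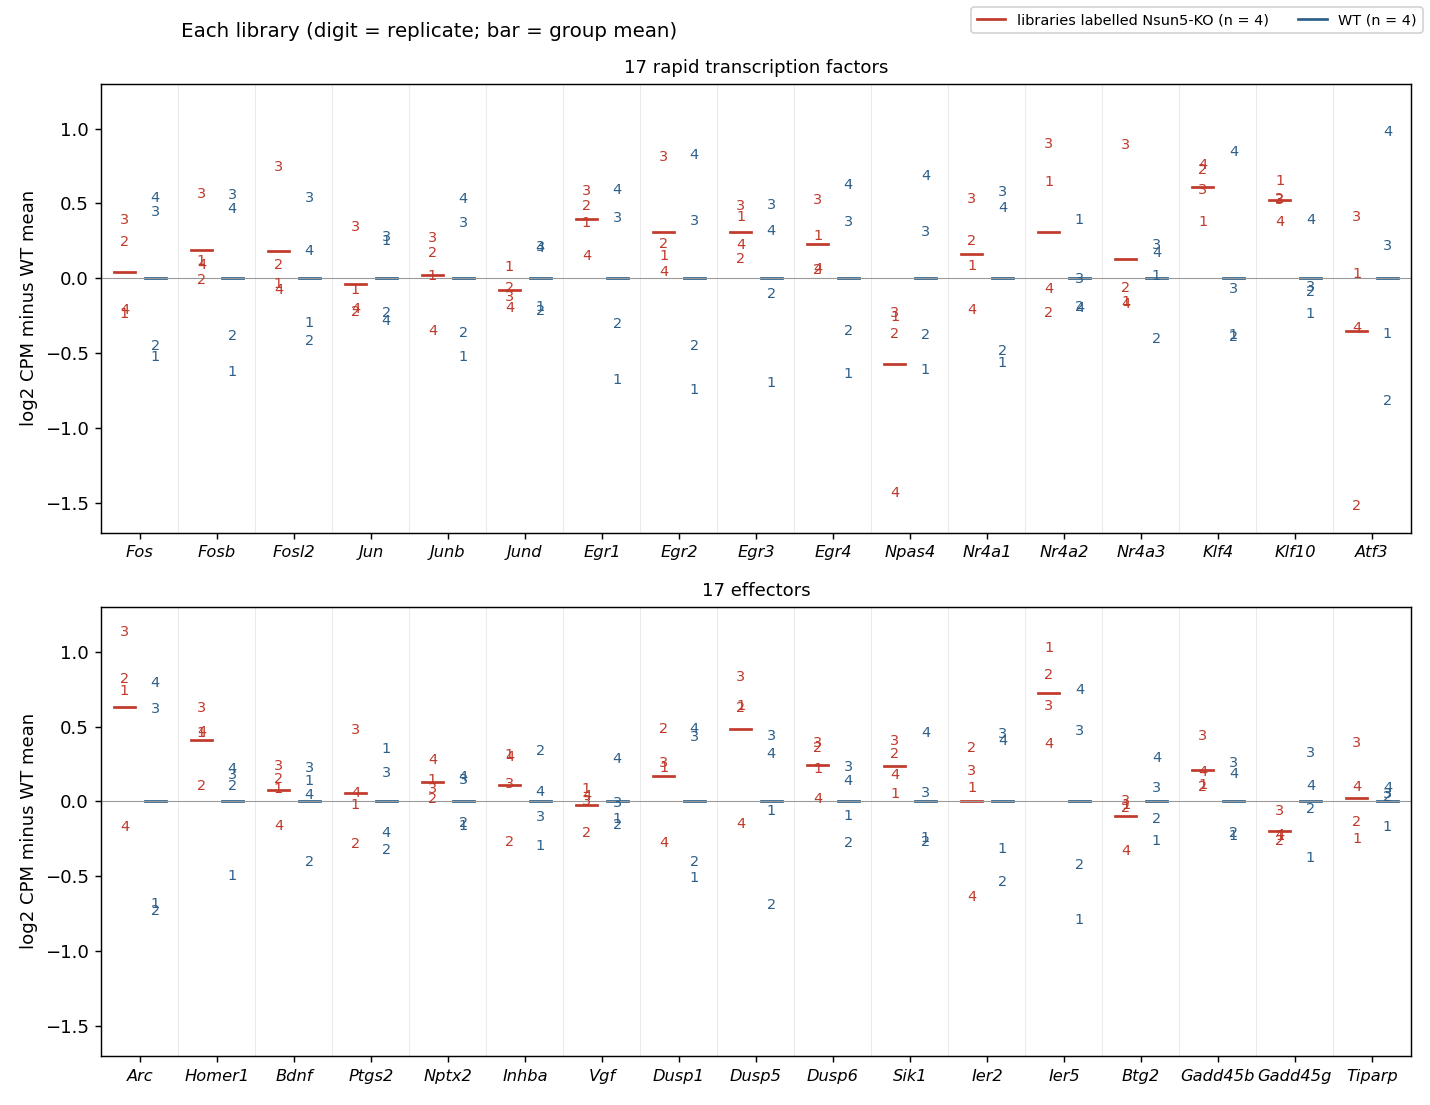
Log2 CPM minus the WT mean of the gene (y) for 17 rapid transcription factors (upper panel) and 17 effectors (lower panel), with digits for replicate numbers, libraries labelled Nsun5-KO to the left of WT, and bars for the group means. WT digits 1 and 2 lie below 3 and 4 in 29 of the 34 genes, and the digits of the groups overlap in every gene.

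The mean of the transcription factors and the mean of the effectors followed the same libraries. As mean log2 CPM minus its WT mean, the transcription factors stood at 0.14, 0.03, 0.48 and -0.09 in replicates 1 to 4 labelled Nsun5-KO and at -0.38, -0.35, 0.30 and 0.42 in WT replicates 1 to 4. The effectors stood at 0.21, 0.17, 0.36 and 0.00 in the libraries labelled Nsun5-KO and at -0.25, -0.25, 0.24 and 0.27 in WT. The WT libraries therefore spanned the libraries labelled Nsun5-KO in the transcription factors apart from its replicate 3. The transcription factors minus the effectors came to -0.07, -0.14, 0.12 and -0.09 in the libraries labelled Nsun5-KO and -0.12, -0.10, 0.07 and 0.16 in WT, so that in WT, though not in replicates 1 and 2 labelled Nsun5-KO, the transcription factors stood further from 0 than the effectors.

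**Figure D3:**
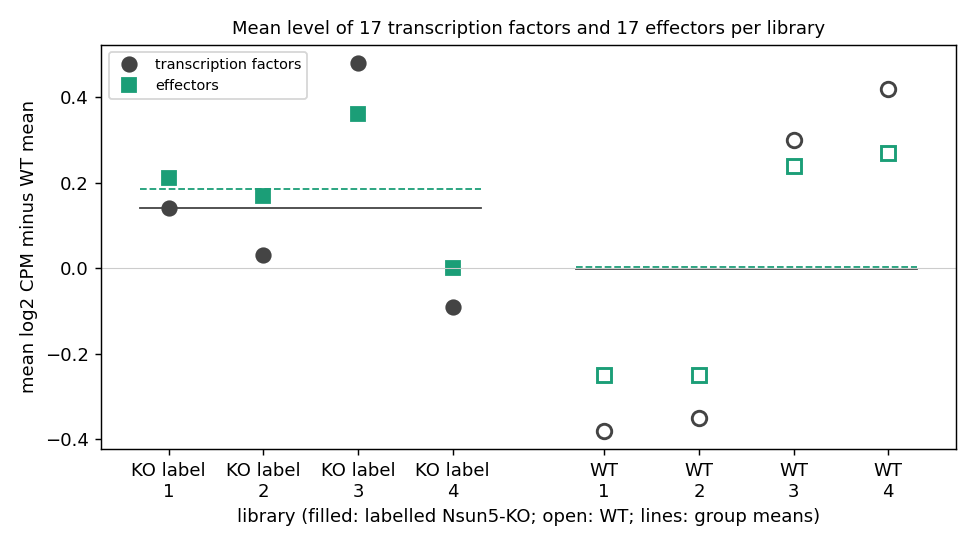
Mean log2 CPM minus the WT mean (y) of 17 transcription factors (circles) and 17 effectors (squares) in each library (x), filled for the 4 libraries labelled Nsun5-KO on the left and open for the 4 WT libraries on the right, with lines for group means. The WT transcription factor values run from -0.38 to 0.42 and those of the libraries labelled Nsun5-KO from -0.09 to 0.48.

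Other measures moved with the order of the WT libraries or with the genotype label, and their part in these values was not tested. The mitochondrial share of counts was highest in WT replicates 1 and 2, the libraries with the lowest activity genes. The summed level of the 6 neuronal markers did not overlap between the groups. It was 6319 to 6883 CPM in libraries labelled Nsun5-KO and 5628 to 5875 CPM in WT. Of the 6, 5 lay above WT and 1 below (median log2 fold change 0.112). All 12 markers of cortex and hippocampus, where activity genes are strongly expressed, lay above WT (median log2 fold change 0.44); their summed level was 2006 to 2588 CPM in libraries labelled Nsun5-KO and 1490 to 2056 CPM in WT, and their score was 0.57, 0.49, 0.59 and 0.16 in the libraries labelled Nsun5-KO and 0.01, -0.34, 0.27 and 0.07 in WT. All 7 tested hypothalamic markers of 14 lay below WT (summed level 12.8 to 23.2 CPM in libraries labelled Nsun5-KO and 30.6 to 85.5 CPM in WT). All 8 choroid plexus markers lay below WT (median log2 fold change -0.89) and in all 8 WT replicates 1 and 2 lay above WT replicates 3 and 4; their summed level was 1197, 139.8, 303.6 and 55.9 CPM in replicates 1 to 4 labelled Nsun5-KO and 1036, 1176, 680.8 and 315.4 CPM in WT replicates 1 to 4. All 8 striatal markers lay below WT (median log2 fold change -0.313). So did all 5 dentate gyrus markers (median -0.435) and all 6 markers of meningeal fibroblasts (median -0.34). The summed striatal level ran from 556.5 to 2051 CPM in libraries labelled Nsun5-KO and from 395.8 to 2148 CPM in WT. The dentate gyrus markers had 20.1 to 48.8 CPM in libraries labelled Nsun5-KO and 21 to 74.6 CPM in WT. The striatal and dentate gyrus levels thus differed widely between libraries of either group. Endothelial markers (207.9 to 241.2 CPM in libraries labelled Nsun5-KO and 224.8 to 237.6 CPM in WT) and microglial markers (300 to 317.9 CPM in libraries labelled Nsun5-KO and 309.6 to 331.1 CPM in WT) overlapped between the groups, and no marker of these lists was at 0 in all libraries. In bulk tissue, fewer cells of a type and less RNA per cell cannot be told apart.

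The promoters were read for the sites through which activity is known to reach these genes. RefSeq start sites (GRCm38.p6) were found for 26 of the 34 genes, and for each gene the 250 bases upstream of the start nearest to the 5′ end in the deposited table were searched on both strands. No window was available for Egr1, Egr3, Klf10, Arc, Nptx2, Vgf, Sik1 and Ier2, so their sites are not in these counts. Sites further upstream than 250 bases were not searched in any gene. The core of the cyclic AMP response element, TGACG, bound by CREB, was in 14 of the 26 windows (10 of 14 transcription factors and 4 of 12 effectors) and in 19.5% of 20482 windows of the same length. The full palindrome TGACGTCA, which contains the core on both strands, was in 2 (Btg2 and Dusp1) against 1.91%, and the CArG box, bound by SRF, in 1 (Dusp5) against 1.35%. The EGR sites GCGTGGGCG or GCGGGGGCG were in 4 (Fosb, Fosl2, Klf4 and Nr4a1) against 3.73%, and the AP-1 site TGACTCA in 0 against 4.1%. The string of the TATA box, TATAAA, was in 5 against 12.2%, counted on either strand and at any position. In Nr4a2 the match was on the opposite strand, 164 bases before the start, and in Inhba it began 91 bases before the start. The windows of the set were also richer in G and C, with a median of 65.6% in the last 180 bases compared with 55.6% over all windows, and the part this plays in the counts of sites was not tested.

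The 180 bases before the start are printed below for 8 genes. Of these, 5 were picked because they followed the order of the WT libraries and hold the core. The other 3 were picked because they did not follow it and lack the core. The printed genes therefore cannot show how often core and order go together, and genes that break this agreement are not printed. Capitals mark TGACG, its reverse complement CGTCA, and the CArG box. They lie at chr12:85473710-85473889 on the plus strand (Fos), chr19:4989972-4990151 on the minus strand (Npas4), chr15:101266666-101266845 on the plus strand (Nr4a1), chr17:26508473-26508652 on the minus strand (Dusp1), chr19:53528965-53529144 on the plus strand (Dusp5), chr4:95052223-95052402 on the minus strand (Jun), chr2:109674520-109674699 on the plus strand (Bdnf) and chr1:150099851-150100030 on the plus strand (Ptgs2).
Fos: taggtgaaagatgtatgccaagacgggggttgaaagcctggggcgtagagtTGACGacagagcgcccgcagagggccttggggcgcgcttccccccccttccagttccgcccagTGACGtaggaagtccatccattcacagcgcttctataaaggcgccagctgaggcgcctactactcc
Npas4: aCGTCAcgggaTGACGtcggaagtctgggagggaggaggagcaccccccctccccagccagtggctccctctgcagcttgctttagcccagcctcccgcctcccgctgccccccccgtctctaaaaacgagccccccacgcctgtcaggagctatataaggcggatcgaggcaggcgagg
Nr4a1: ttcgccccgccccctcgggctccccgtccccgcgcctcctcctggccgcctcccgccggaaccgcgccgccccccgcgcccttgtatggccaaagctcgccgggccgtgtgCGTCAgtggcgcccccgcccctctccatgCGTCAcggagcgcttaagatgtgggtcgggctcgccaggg
Dusp1: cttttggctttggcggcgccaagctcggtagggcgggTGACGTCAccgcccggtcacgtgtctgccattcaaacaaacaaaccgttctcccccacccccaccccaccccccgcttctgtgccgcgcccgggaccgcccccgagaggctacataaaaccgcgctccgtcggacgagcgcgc
Dusp5: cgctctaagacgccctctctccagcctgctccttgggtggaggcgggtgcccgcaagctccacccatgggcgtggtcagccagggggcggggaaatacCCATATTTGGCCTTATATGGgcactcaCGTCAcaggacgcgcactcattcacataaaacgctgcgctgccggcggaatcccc
Jun: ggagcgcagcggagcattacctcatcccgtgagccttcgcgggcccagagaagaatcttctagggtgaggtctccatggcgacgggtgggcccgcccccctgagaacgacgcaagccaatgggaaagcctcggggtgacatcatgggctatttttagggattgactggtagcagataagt
Bdnf: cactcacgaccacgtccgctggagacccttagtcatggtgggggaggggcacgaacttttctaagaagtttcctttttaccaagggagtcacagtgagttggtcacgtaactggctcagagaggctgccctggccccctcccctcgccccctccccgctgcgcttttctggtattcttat
Ptgs2: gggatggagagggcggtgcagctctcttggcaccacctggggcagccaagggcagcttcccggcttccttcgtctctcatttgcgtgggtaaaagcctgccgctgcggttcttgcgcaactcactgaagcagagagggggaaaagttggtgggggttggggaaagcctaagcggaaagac
In Fos the core begins 129 and 66 bases before the start and the TATA box 33 bases before it. In Npas4 and Nr4a1 the core occurs more than once within these 180 bases, and in Dusp5 a pair of abutting CArG boxes, which begin 82 and 72 bases before the start, precedes a core at 55. Of the 21 genes with a window that followed the WT order 13 held the core, and of the 5 that did not follow it 1 did (Nr4a2). Bdnf and Nr4a1 have several starts, and each window covers a single start. That start lies inside the deposited gene, 12577 bases from its 5′ end for Nr4a1, 34706 for Atf3, 4122 for Homer1 and 671 for Fosl2. For Jund it lies 1210 bases upstream of the deposited gene.

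The AP-1 genes, whose Fos and Jun proteins bind DNA as dimers, lay on either side of WT, with 2 above and 4 below and a median log2 fold change of -0.020. The median was -0.29 without WT replicates 1 and 2, with 0 of 6 above WT, and 0.53 without WT replicates 3 and 4, with 5 of 6 above. Fos had 42.4, 59.2, 65.5 and 43.3 CPM in replicates 1 to 4 labelled Nsun5-KO and 34.8, 36.7, 68 and 72.7 CPM in WT replicates 1 to 4. All 4 libraries labelled Nsun5-KO lay between the low and high WT libraries, and the log2 fold change was -0.013 (SE 0.29, 95% interval -0.70 to 0.67, edgeR adjusted p = 0.992). Fosb, which also yields the long-lived splice form ΔFosB, was at 0.12 and Fosl2 at 0.17. Junb had 104.2, 115.9, 124.2 and 80.9 CPM in libraries labelled Nsun5-KO and 71.8, 79.9, 133 and 148.6 CPM in WT, with the same low and high WT libraries as Fos (log2 fold change -0.028). Jun broke that pattern, with 54.4, 49.2, 73 and 50 CPM in libraries labelled Nsun5-KO and 68.3, 48.9, 69.5 and 47.2 CPM in WT. Jund, the Jun gene that is least dependent on stimulation, varied least of the family (53.3 ± 4.28 CPM in libraries labelled Nsun5-KO and 56.7 ± 9.29 CPM in WT, SD, n = 4 each; log2 fold change -0.090). The end of Junb overlaps Prdx2 on the opposite strand over 351 bases, and since the library kit does not mark strand, reads there cannot be assigned.

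The 4 Egr genes, zinc-finger factors that bind GC-rich sites, lay within the WT range in every library labelled Nsun5-KO. Egr1 had 424.5, 459.3, 492.6 and 363.5 CPM in libraries labelled Nsun5-KO and 204.6, 265.2, 433.3 and 494.2 CPM in WT. The libraries labelled Nsun5-KO sat beside WT replicates 3 and 4 and above replicates 1 and 2, with an SD of log2 CPM of 0.19 against 0.60 in WT (log2 fold change 0.32, SE 0.28, adjusted p = 0.754). Egr3 repeated this with 185.9, 153.5, 195.7 and 163.2 CPM in libraries labelled Nsun5-KO and 86.4, 130.4, 196.9 and 174.2 CPM in WT (log2 fold change 0.25). Egr2 was at 0.20 and Egr4 at 0.15. All 4 folds turned negative without WT replicates 1 and 2 (-0.094, -0.28, -0.090 and -0.26 for Egr1 to Egr4) and reached 0.89, 0.94, 0.69 and 0.74 without WT replicates 3 and 4.

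Npas4, a neuron-specific factor induced by calcium entry that shapes inhibitory synapses, had the lowest fold change of the set. It had 16.5, 15.4, 16.9 and 7.32 CPM in libraries labelled Nsun5-KO and 13, 15.3, 24.6 and 31.8 CPM in WT. The libraries labelled Nsun5-KO were level with WT replicates 1 and 2, and replicate 4 was the lowest of all 8. The log2 fold change was -0.60 (SE 0.36, edgeR adjusted p = 0.618), -0.38 without that library, -0.33 without WT replicate 4, -1.01 without WT replicates 1 and 2 and -0.006 without WT replicates 3 and 4. Where Egr1 in the libraries labelled Nsun5-KO sat with the high WT libraries, Npas4 sat with the low ones.

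The Nr4a genes, orphan nuclear receptors, did not vary together. Nr4a1 followed Fos, with 140.4, 158.1, 191.3 and 114.8 CPM in libraries labelled Nsun5-KO and 89.8, 95, 198.1 and 184.3 CPM in WT (log2 fold change 0.092). Nr4a2, which midbrain dopamine neurons also express without stimulation, had 77, 41.9, 91.9 and 46.9 CPM in libraries labelled Nsun5-KO and 64.6, 43.2, 49.1 and 43 CPM in WT. Its replicates 1 and 3 labelled Nsun5-KO stood above every other library, and the log2 fold change of 0.37 (SE 0.28, adjusted p = 0.701) was 0.15 without replicate 3. Nr4a3 had 43, 45.9, 89.1 and 42.6 CPM in libraries labelled Nsun5-KO and 48.4, 36.2, 56 and 53.9 CPM in WT. A single library, replicate 3 labelled Nsun5-KO, carried its fold change, which was 0.18 with it and -0.15 without it. Nr4a2 and Nr4a3 were thus more variable in the libraries labelled Nsun5-KO (SD of log2 CPM 0.55 and 0.51) than in WT (0.28 for each).

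Klf10, a Krüppel-like zinc-finger factor that growth factors induce, had the smallest p of the set. Klf10 had 72.3, 66.4, 66 and 59.7 CPM in libraries labelled Nsun5-KO and 39, 43.1, 44.3 and 60.2 CPM in WT. All but 1 WT library lay below every library labelled Nsun5-KO, and WT replicate 4 overlapped replicate 4 of the other group by a small margin. The log2 fold change was 0.50 (SE 0.12, 95% interval 0.23 to 0.77) with an edgeR unadjusted p = 0.00164 and an adjusted p = 0.313, and DESeq2 gave an adjusted p = 0.0395. It was 0.34 without WT replicates 1 and 2 and 0.69 without WT replicates 3 and 4, and with any single library left out it ran from 0.42 to 0.65 with edgeR adjusted p-values from 0.0607 to 0.61. Klf4, its relative, had 8.74, 11.1, 10.1 and 11.4 CPM in libraries labelled Nsun5-KO and 5.18, 5.13, 6.41 and 12.1 CPM in WT (log2 fold change 0.52, SE 0.26, adjusted p = 0.528). WT replicate 4 was again the high WT library, and without it the Klf4 fold change was 0.89. Atf3, a stress-induced factor, had too few counts to place, with a log2 fold change of -0.37 and a 95% interval of -1.35 to 0.62.

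Among effectors that act at the synapse, Arc and Homer1 stood furthest from WT. Arc, which drives the removal of AMPA receptors from the synapse, had 433.1, 458.2, 571.5 and 231.7 CPM in libraries labelled Nsun5-KO and 162, 157, 400.2 and 450.3 CPM in WT. It was low in replicate 4 labelled Nsun5-KO and in WT replicates 1 and 2 and high in the other 5 libraries. The log2 fold change was 0.53 (SE 0.46, adjusted p = 0.748), -0.007 without WT replicates 1 and 2 and 1.41 without WT replicates 3 and 4. Homer1, a scaffold of metabotropic glutamate receptors whose short form is the activity-induced one, had 276.5, 216.7, 311.2 and 278.3 CPM in libraries labelled Nsun5-KO and 142.6, 216.7, 227.8 and 234.3 CPM in WT. Of the libraries labelled Nsun5-KO only replicate 2 lay within the WT range (log2 fold change 0.40, SE 0.16, unadjusted p = 0.0351, adjusted p = 0.449), and the gene count does not tell the short form from the long ones. Nptx2, a pentraxin that clusters AMPA receptors, averaged 62.2 ± 4.84 CPM in libraries labelled Nsun5-KO and 57 ± 7.01 CPM in WT (log2 fold change 0.12).

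None of the secreted effectors, nor the enzyme Ptgs2, passed the test. Bdnf, the neurotrophin, averaged 40 ± 4.6 CPM in libraries labelled Nsun5-KO and 38.2 ± 6.84 CPM in WT (SD, n = 4 each), and the 95% interval of its log2 fold change ran from -0.22 to 0.35. Vgf, a neuropeptide precursor, averaged 285.2 ± 25.1 CPM in libraries labelled Nsun5-KO and 290.6 ± 41.6 CPM in WT, with an interval of -0.25 to 0.19. For Bdnf and Vgf the intervals leave out a change of the size seen for Klf10. Ptgs2, the inducible cyclo-oxygenase, was at 0.053 (95% interval -0.35 to 0.46), with 15.5, 12.9, 21.9 and 16.4 CPM in libraries labelled Nsun5-KO and 20.1, 12.6, 18 and 13.6 CPM in WT. Its high WT libraries were replicates 1 and 3, as for Jun, and not 3 and 4. Inhba, a subunit of activin, was at 0.11 (95% interval -0.24 to 0.46); it is overlapped on the opposite strand by B230303A05Rik, whose counts reached 140, and Inhba itself had as few as 187.

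The 4 kinase pathway effectors, the Dusp phosphatases and the kinase Sik1, lay above WT without passing the test. Dusp6, a phosphatase of ERK, had 100, 110.1, 112.4 and 87 CPM in libraries labelled Nsun5-KO and 80.4, 70.9, 100.8 and 94.6 CPM in WT (log2 fold change 0.24, SE 0.12, adjusted p = 0.507). Dusp5, the nuclear ERK phosphatase with the CArG boxes shown above, had 25.8, 25.6, 29.5 and 15 CPM in libraries labelled Nsun5-KO and 15.9, 10.3, 22.5 and 20.7 CPM in WT (log2 fold change 0.46, SE 0.27, adjusted p = 0.604). In both genes replicate 4 labelled Nsun5-KO was the lowest of its group, as in Arc. Dusp1, which acts more on the p38 and JNK kinases, was at 0.13, -0.26 without WT replicates 1 and 2 and 0.66 without WT replicates 3 and 4. Sik1, a kinase that restrains the CREB coactivators, was at 0.21, with 23.1, 27.8, 29.5 and 25.2 CPM in libraries labelled Nsun5-KO and 18.8, 18.5, 23.2 and 30.6 CPM in WT.

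The growth and stress effectors were split. Ier5, a nuclear regulator of the heat shock response, had the highest fold change of the set and among the widest WT spreads. It had 144.8, 128.2, 110.9 and 92.9 CPM in libraries labelled Nsun5-KO and 41.2, 53.2, 98.5 and 119.3 CPM in WT. The lowest library labelled Nsun5-KO still lay above WT replicates 1 and 2 and below WT replicates 3 and 4 (log2 fold change 0.61, SE 0.36, adjusted p = 0.612, and 0.13 without WT replicates 1 and 2). Gadd45b was at 0.20 and its relative Gadd45g at -0.22, both linked to growth arrest and DNA demethylation. Gadd45g had 13.2, 12.9, 14.9 and 13.3 CPM in libraries labelled Nsun5-KO and 12, 15, 19.4 and 16.7 CPM in WT, so the libraries labelled Nsun5-KO were narrow and on the low side of the WT range. Ier2 (-0.017), Tiparp, an ADP-ribosyltransferase (0.042), and Btg2, an antiproliferative cofactor of RNA deadenylation (-0.11), had folds nearer to 0.

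**Figure D4:**
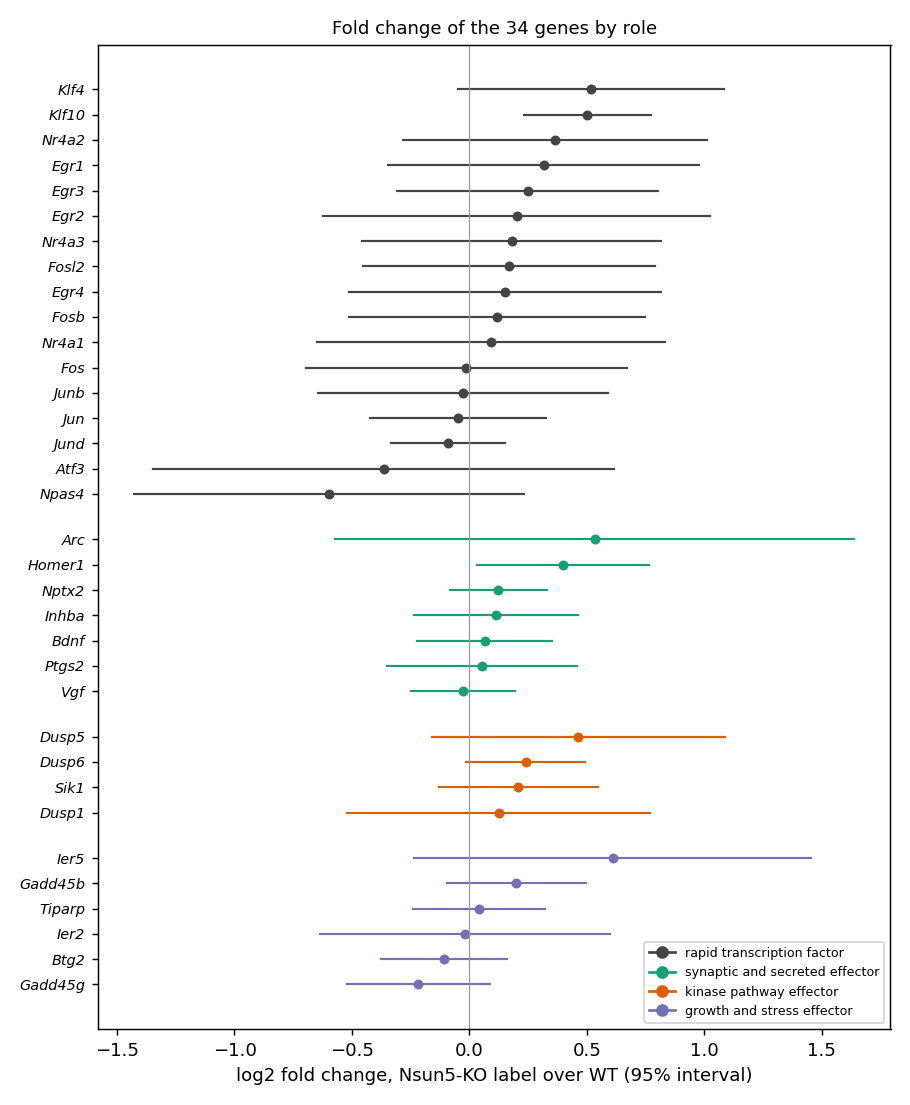
Log2 fold change between libraries labelled Nsun5-KO and WT (Nsun5-KO label over WT) (x, point) with its 95% interval from edgeR (line) for the 34 genes (y), grouped by role. The intervals of Klf10 (0.23 to 0.77) and Homer1 (0.034 to 0.76) lie above 0 and those of the other 32 genes cross it.

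The WT libraries that were included set the sign for most of the set. Without WT replicates 1 and 2 the median log2 fold change was -0.072, with 10 genes above and 24 below WT; the transcription factors were at -0.26 and the effectors at -0.024. Without WT replicates 3 and 4 the median was 0.48, with 32 genes above and 2 below; the transcription factors were at 0.58 and the effectors at 0.44. EdgeR then called 5 of the 34, all higher (Egr1, Egr4, Klf4, Klf10 and Ier5, adjusted p = 0.0227, 0.0369, 0.018, 0.0118 and 0.0275), where it called 1.98% of all genes higher and 0.775% lower. Its unadjusted p was below 0.05 for 19 of the 34 higher and 0 lower in that fit, against 10.8% and 8.43% of all genes. Without WT replicates 1 and 2 edgeR called 0 of the 34 and 0% of all genes, and an unadjusted p below 0.05 was reached by 1 of the 34 higher and 5 lower, against 3.35% and 3.83% of all genes. Klf4, Klf10, Homer1, Nr4a2, Inhba, Dusp5, Dusp6 and Ier5 kept a log2 fold change above 0.05 in both, and Jun, Inhba and Ptgs2 moved least between them. The fit without WT replicates 3 and 4 was added after the data had been seen. The order of the WT libraries was also known from earlier results, so neither pair was left out blind to it. Leaving out WT replicates 3 and 4 keeps the WT libraries that were lower in 29 of the 34 genes. The calls and p-values of that fit are therefore a description and no test of the genotype.

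**Figure D5:**
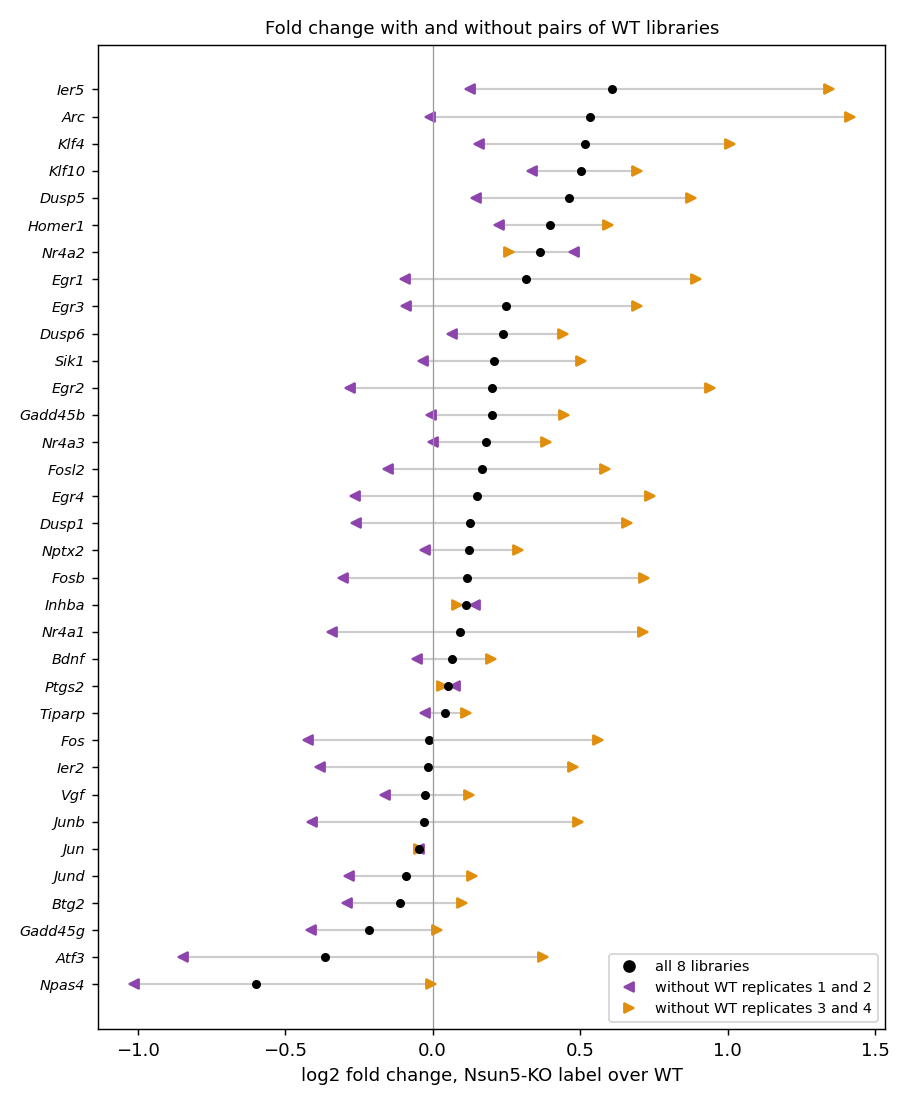
Log2 fold change between libraries labelled Nsun5-KO and WT (Nsun5-KO label over WT) (x) for the 34 genes (y) with all 8 libraries (circles), without WT replicates 1 and 2 (left-pointing triangles) and without WT replicates 3 and 4 (right-pointing triangles). Arc runs from -0.007 to 1.41 and Ier5 from 0.13 to 1.34, while Jun stays at -0.045 and -0.046.

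EdgeR called no gene of the related lists with all libraries, and DESeq2 called 1 in each (Hdac4 and Sgk1). Of the 14186 genes to which DESeq2 gave an adjusted p, it called 0.36% higher and 0.303% lower. Of 30 regulators upstream of activity genes (SRF, MEF2 and CREB factors, their coactivators, calcium-dependent kinases and class IIa deacetylases), edgeR called 0, with 5 above and 0 below WT at an unadjusted p under 0.05 (median 0.068), against 5.3% of all genes above and 5.05% below. Hdac4, a deacetylase that represses MEF2, had 61.2, 60.4, 71.2 and 58.2 CPM in libraries labelled Nsun5-KO and 50.9, 47, 49.3 and 47.7 CPM in WT. The groups did not overlap (log2 fold change 0.36, SE 0.078, edgeR adjusted p = 0.307, DESeq2 adjusted p = 0.0179), and the fold was 0.37 and 0.36 without WT replicates 1 and 2 or 3 and 4. Mef2c (0.36, SE 0.097, adjusted p = 0.313) and the coactivator gene Crebbp (0.29, SE 0.11, adjusted p = 0.412) had the next smallest p-values. Rps6ka1, an ERK-activated kinase, was the 1 regulator that lay wholly below WT (14.2, 13.2, 11.4 and 14.4 CPM in libraries labelled Nsun5-KO and 14.9, 14.6, 15.9 and 14.8 CPM in WT; log2 fold change -0.18, edgeR adjusted p = 0.602). Without WT replicates 3 and 4 edgeR called 1 of the 30, Camkk2, a kinase upstream of other calcium-dependent kinases (adjusted p = 0.0212). In that fit 1.98% of all genes were called higher and 0.775% lower. Among the 30, 1 lay wholly above WT and 1 wholly below, against 2.99% and 2.71% of all genes. Rps6ka1 and Camkk2 are named because of their values. Of the 30 regulators 9 (30%) showed the order of the WT libraries and 6 (20%) its reverse, near the 24.5% and 25.3% of all genes.

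Of 40 other activity-induced genes, 28 (70%) showed that order, against 24.5% of all genes. EdgeR called 0 of them, with 6 above and 1 below WT at an unadjusted p under 0.05, against 5.3% of all genes above and 5.05% below. Their median of 0.16 was 0.016 without WT replicates 1 and 2 (0 called) and 0.40 without WT replicates 3 and 4 (7 called). In the latter fit 1.98% of all genes were called higher and 0.775% lower. The median thus moved with the WT libraries as that of the 34 genes did. Sgk1, a kinase that glucocorticoids also induce, had 108.3, 105.9, 133.7 and 136.5 CPM in libraries labelled Nsun5-KO and 58.2, 69.6, 84.7 and 92.8 CPM in WT. Every library labelled Nsun5-KO lay above every WT library (log2 fold change 0.67, SE 0.15, edgeR adjusted p = 0.307, DESeq2 adjusted p = 0.0046), and the fold was 0.45 without WT replicates 1 and 2 and 0.93 without WT replicates 3 and 4. Nptx1, a pentraxin related to Nptx2, was at 0.39 (SE 0.10, adjusted p = 0.313) and Nfkbia, an inhibitor of NF-kappa-B, at 0.33 (SE 0.10, adjusted p = 0.343), and both also had groups that did not overlap. With Sgk1, 3 of the 40 lay wholly above WT and 0 wholly below, against 2.99% and 2.71% of all genes. Crem belongs to both lists.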

How the data were processed

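Brain RNA from 4 libraries labelled Nsun5-KO and 4 WT libraries was extracted with TRIzol and sequenced from NEBNext Ultra libraries, per the labels' protocols. Reads were aligned with HISAT2 2.0.5 to mm10, per the submitters' processing notes; which counter and annotation followed is not given in the sources used here. Deposited counts are whole, unnormalised reads per gene for 54532 genes. The deposited FPKM values equal the counts over gene length and over a constant for each library (0.9813 to 1.022 times its total). Deposited group means were not used.

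Testing used edgeR 4.0.16 (R 4.3.3) on the counts: filterByExpr by group (16062 genes kept), TMM scaling, the robust quasi-likelihood F test over all 8 libraries without covariates, and Benjamini-Hochberg adjustment over all genes tested, called at 0.05. CPM values are TMM-scaled, and log2 CPM uses a prior count of 2. The pipeline was tested on simulated data. The labels name several mice per genotype but do not tie each library to a mouse, so p-values measure the spread between these libraries, which may be partly technical. No libraries of a group agreed within sampling noise (chi-square per degree of freedom 7.22 to 20.4). Alternatives were DESeq2 1.42.0, its size factors in edgeR, no filter, the replicate block, each library left out and WT libraries left out in pairs.

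The 34 genes, their roles and the lists were chosen with earlier results of these data known. All 34 are named, with Nsun5 and the 3 genes of smallest p in each list of neighbours. Rps6ka1 and Camkk2 were also named, because of their values.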

Additional observations from a re-analysis of the deposited data

Results flagged for a closer look

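Among the 34 genes, 4 values stood apart from the other 3 libraries of their group by Dixon's test at the 95% level, in 68 sets of 4 libraries, of which chance flags about 1 in 20. In the libraries labelled Nsun5-KO, Fosl2 had 86.3 CPM in replicate 3, with the next at 54.7 CPM, and Nr4a3 had 89.1 CPM in the same library, with the next at 45.9 CPM. Npas4 had 7.32 CPM in replicate 4 labelled Nsun5-KO, with the next at 15.4 CPM, and Btg2 had 22.5 CPM there, with the next at 27.5 CPM. No WT library stood apart in this way.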

How the results depend on the processing

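The counts of calls depended on the tool and on the WT libraries, and the cause was not tested. Over all genes edgeR called 0, DESeq2 94 (1 of the 34), edgeR without the low-count filter 68 (0 of the 34), and edgeR without WT replicates 3 and 4 458 (5 of the 34); with single libraries left out it called 0 to 2 genes (2 without replicate 4 labelled Nsun5-KO), and 0 of the 34. The medians of the set, 0.48 with the transcription factors at 0.58 and the effectors at 0.44, moved by more than the spread of the libraries without WT replicates 3 and 4, and the transcription factors moved to -0.26 without WT replicates 1 and 2. Leaving out single libraries took the median of the set to 0.008 to 0.26, of the transcription factors to -0.041 to 0.29 and of the effectors to 0.072 to 0.18.

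DESeq2, its size factors in edgeR and the unfiltered fit turned no sign among the 34. Same-numbered libraries did not deviate together (r = -0.115, -0.213, -0.0411 and 0.0631). With 4 libraries in a group, this cannot tell whether same-numbered libraries share a litter or a batch. No library correlated best with the library of its own number in the other group. The replicate block called 0 genes, as without it, and turned Fos to 0.040, Junb to 0.026 and Ier2 to 0.001. Without WT replicates 1 and 2, 14 folds turned: Fosb -0.303, Fosl2 -0.151, Egr1 -0.094, Egr2 -0.281, Egr3 -0.090, Egr4 -0.263, Nr4a1 -0.341, Arc -0.007, Bdnf -0.054, Nptx2 -0.024, Dusp1 -0.260, Sik1 -0.031, Gadd45b -0.006 and Tiparp -0.026. Without WT replicates 3 and 4, 8 turned: Fos 0.562, Junb 0.492, Jund 0.135, Atf3 0.376, Vgf 0.123, Ier2 0.476, Btg2 0.101 and Gadd45g 0.014. With single libraries left out, folds of 16 genes changed sign, with these ranges: Fos -0.172 to 0.175, Fosb -0.064 to 0.311, Fosl2 -0.058 to 0.373, Jun -0.190 to 0.048, Junb -0.184 to 0.160, Egr2 -0.007 to 0.527, Egr4 -0.031 to 0.380, Nr4a1 -0.077 to 0.296, Nr4a3 -0.149 to 0.285, Atf3 -0.637 to 0.056, Bdnf -0.056 to 0.141, Ptgs2 -0.103 to 0.176, Vgf -0.083 to 0.071, Dusp1 -0.028 to 0.292, Ier2 -0.173 to 0.155 and Tiparp -0.092 to 0.127. At 8 to 47 counts a library, Atf3 is limited by depth.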
